A study of Mus musculus with 8 samples.

Results

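Imprinted genes are transcribed mainly from only the maternal or only the paternal copy, and 10 of them with known roles in growth or in blood stem cells are described here: Dlk1, Meg3, Mest, H19, Igf2, Igf2r, Grb10, Plagl1, Peg3 and Ndn. Each was found on the array through the transcript that a probe carries, and 18 probes matched 9 of the 10 genes, out of 20643 genes with a named probe. No probe was matched to H19, so its level is not analysed here. For a gene with several probes, the probe that stands for it was chosen by its mean measured level over the 8 arrays, the highest being taken, and the other probes are shown beside it. The genes themselves were selected with levels on these arrays known, so their levels are given as a description.

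RNA came from LSK cells of the bone marrow, a sorted fraction that lacks lineage antigens, carries c-Kit and Sca-1, and holds stem cells and early progenitors. Donor CD45.2 stem cells carried Cre-ERT and either wild-type or floxed Ezh2, received a retrovirus with RUNX1S291fs or an empty one, and were grafted into lethally irradiated recipients beside wild-type CD45.1 marrow, after which Ezh2 was deleted. EZH2 is the histone methyltransferase of the Polycomb repressive complex that silences many developmental genes, and RUNX1S291fs is a frameshift mutant of the blood transcription factor RUNX1. All cells were of the C57BL/6 background. Each of 8 groups had 1 array and no replicate. At month 4 these were Ezh2Δ/Δ cells (empty vector, Ezh2 deleted), RUNX1S291fs cells (wild-type Ezh2) and RUNX1S291fs/Ezh2Δ/Δ cells (both lesions). RUNX1S291fs/Ezh2Δ/Δ-MDS cells came from a moribund mouse with myelodysplastic syndrome (the MDS array), and RUNX1S291fs/Ezh2Δ/Δ-MDS/ML cells from another with that syndrome and myeloid leukemia (the MDS/ML array). At month 4 there were also wild-type CD45.1 cells from RUNX1S291fs recipients, wild-type CD45.1 cells from RUNX1S291fs/Ezh2Δ/Δ recipients, and WT donor cells (empty vector, wild-type Ezh2). The arrays of month 4 were pools of 2 to 4 mice, and no age is known here for the moribund animals. The CD45.1 cells carry neither Cre-ERT nor a vector as far as the labels say, and 3 arrays in all are of wild-type genotype. Whether the CD45.1 cells came from the same mice as the donor cells on the other arrays is not stated.

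Imprinted genes lie in clusters, and each cluster is controlled by a region whose DNA methylation differs between the parental copies. In mice, Dlk1, Igf2, Mest, Peg3, Plagl1 and Ndn are expressed from the paternal copy, and H19, Igf2r, Meg3 and, in most tissues, Grb10 from the maternal copy. Many paternally expressed members promote growth and many maternally expressed members restrain it, and quiescent blood stem cells are known for expressing several of them.

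The promoter sequences of Mest, Dlk1, Meg3 and Plagl1 are shown because these genes differed widely between arrays. Each window runs from 250 bases before to 50 bases after a transcription start site listed by RefSeq on the mouse build GRCm38.p6, on the plus strand, and CG dinucleotides, the sites of DNA methylation, are in capitals. RefSeq lists start sites of Mest that are far apart, and a window of each is given.
Mest chr6:30733256-30733555: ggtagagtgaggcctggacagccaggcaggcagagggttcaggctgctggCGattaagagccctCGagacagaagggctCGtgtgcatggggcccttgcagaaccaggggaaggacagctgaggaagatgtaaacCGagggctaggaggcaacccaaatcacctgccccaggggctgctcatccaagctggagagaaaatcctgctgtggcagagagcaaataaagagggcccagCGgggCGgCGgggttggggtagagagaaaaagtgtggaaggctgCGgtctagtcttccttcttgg
Mest chr6:30737800-30738099: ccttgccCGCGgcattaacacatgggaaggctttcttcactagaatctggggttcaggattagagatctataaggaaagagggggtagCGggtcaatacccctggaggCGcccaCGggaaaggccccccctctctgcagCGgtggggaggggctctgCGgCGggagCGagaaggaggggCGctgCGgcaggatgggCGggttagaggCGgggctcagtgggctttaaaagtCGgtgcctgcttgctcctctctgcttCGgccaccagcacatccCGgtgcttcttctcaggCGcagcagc
Dlk1 chr12:109452573-109452872: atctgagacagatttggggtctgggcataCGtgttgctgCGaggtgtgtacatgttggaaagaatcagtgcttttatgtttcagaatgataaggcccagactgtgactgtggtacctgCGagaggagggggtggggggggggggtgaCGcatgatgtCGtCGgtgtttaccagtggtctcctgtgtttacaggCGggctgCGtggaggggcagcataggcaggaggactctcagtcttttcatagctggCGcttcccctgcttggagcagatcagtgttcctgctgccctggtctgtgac
Meg3 chr12:109540746-109541045: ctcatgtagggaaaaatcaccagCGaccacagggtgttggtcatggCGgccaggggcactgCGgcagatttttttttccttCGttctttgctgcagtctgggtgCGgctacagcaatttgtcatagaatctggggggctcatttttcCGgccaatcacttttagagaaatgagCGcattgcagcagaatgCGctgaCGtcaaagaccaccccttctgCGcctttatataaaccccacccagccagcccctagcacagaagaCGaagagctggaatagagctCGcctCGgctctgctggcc
Plagl1 chr10:13090582-13090881: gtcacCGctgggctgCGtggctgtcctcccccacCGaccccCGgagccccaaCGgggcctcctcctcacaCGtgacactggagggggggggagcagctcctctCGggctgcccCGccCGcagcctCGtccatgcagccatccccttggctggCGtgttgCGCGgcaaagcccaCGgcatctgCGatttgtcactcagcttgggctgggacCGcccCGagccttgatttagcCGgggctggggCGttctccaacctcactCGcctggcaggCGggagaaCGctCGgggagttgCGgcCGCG
The upstream Mest window holds 8 CG dinucleotides and the downstream one 17, against 9 for Dlk1, 13 for Meg3 and 26 for Plagl1. The median over all 32851 promoter windows is 7, with quartiles of 3 and 20. The ratio of observed to expected CG was at least 0.6 in 8 of the 16 windows of these imprinted genes, which belong to 7 genes, against 35.8% of all windows. H19 had no window in the table. DNA methylation was not measured, so these counts say nothing of its state.

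**Figure D1:**
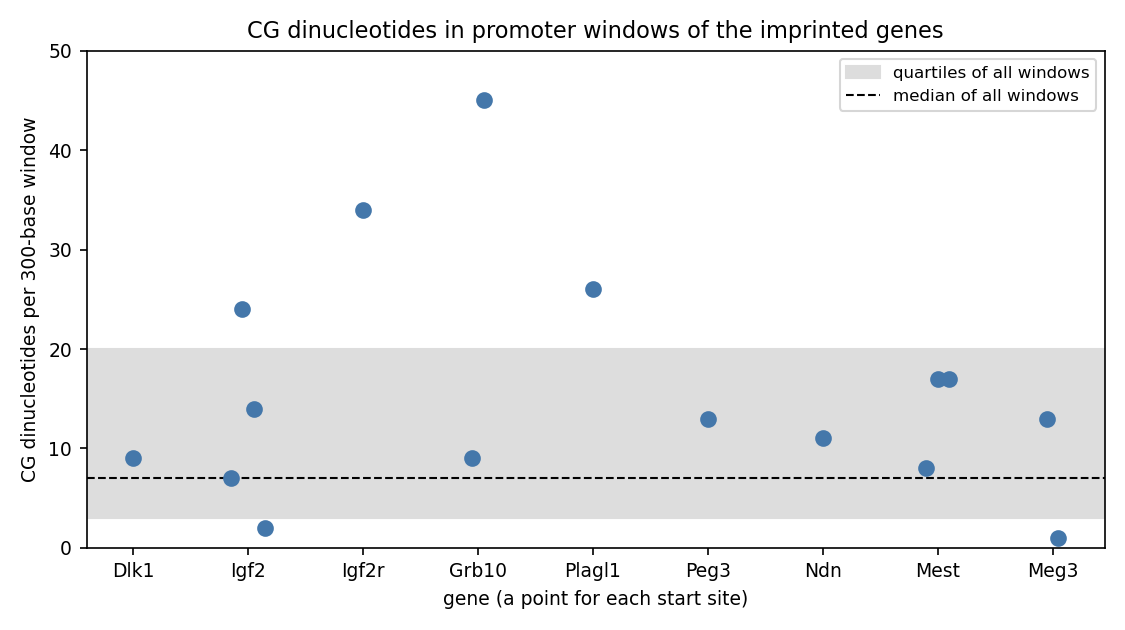
CG dinucleotides per 300-base promoter window (y axis) for each start site of 9 imprinted genes (x axis), with the quartiles and the median of all windows as a grey band and a dashed line. The highest point is Grb10 with 45, and the lowest is Meg3's second start site with 1.

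The Mest gene holds the microRNA miR-335 within its bounds, at chr6:30741314-30741375 of the plus strand from the first arm's start to the second arm's end. Its arms are shown because the gene that hosts them had the widest range of all members. The seed, bases 2 to 8, is in capitals.
mmu-miR-335-5p: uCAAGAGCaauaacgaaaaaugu
mmu-miR-335-3p: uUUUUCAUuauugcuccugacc
The seeds of the arms differ, and the level of the microRNA itself was not analysed here.

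Levels are log2 processed signal minus that of the array's 75th percentile, which is therefore a level of 0. A probe counts as detected where the scanner software called it well above background. The lowest detected level on an array was -3.79 on the dimmest, that of CD45.1 cells from RUNX1S291fs recipients, and -5.25 on the WT array. Between 43.9% and 55.3% of all probes were detected on an array. The number of detected members, of 9, was 5 on the Ezh2Δ/Δ array, 2 on the RUNX1S291fs array, 6 on the RUNX1S291fs/Ezh2Δ/Δ array, 5 on each moribund array, 4 in CD45.1 cells from RUNX1S291fs recipients, 6 in CD45.1 cells from RUNX1S291fs/Ezh2Δ/Δ recipients and 5 on the WT array. Dlk1 and Plagl1 were detected on all 8 arrays, Igf2r on 7, Grb10 and Ndn on 5, Meg3 on 3 and Mest on 2. Igf2 and Peg3 were detected on none.

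**Figure D2:**
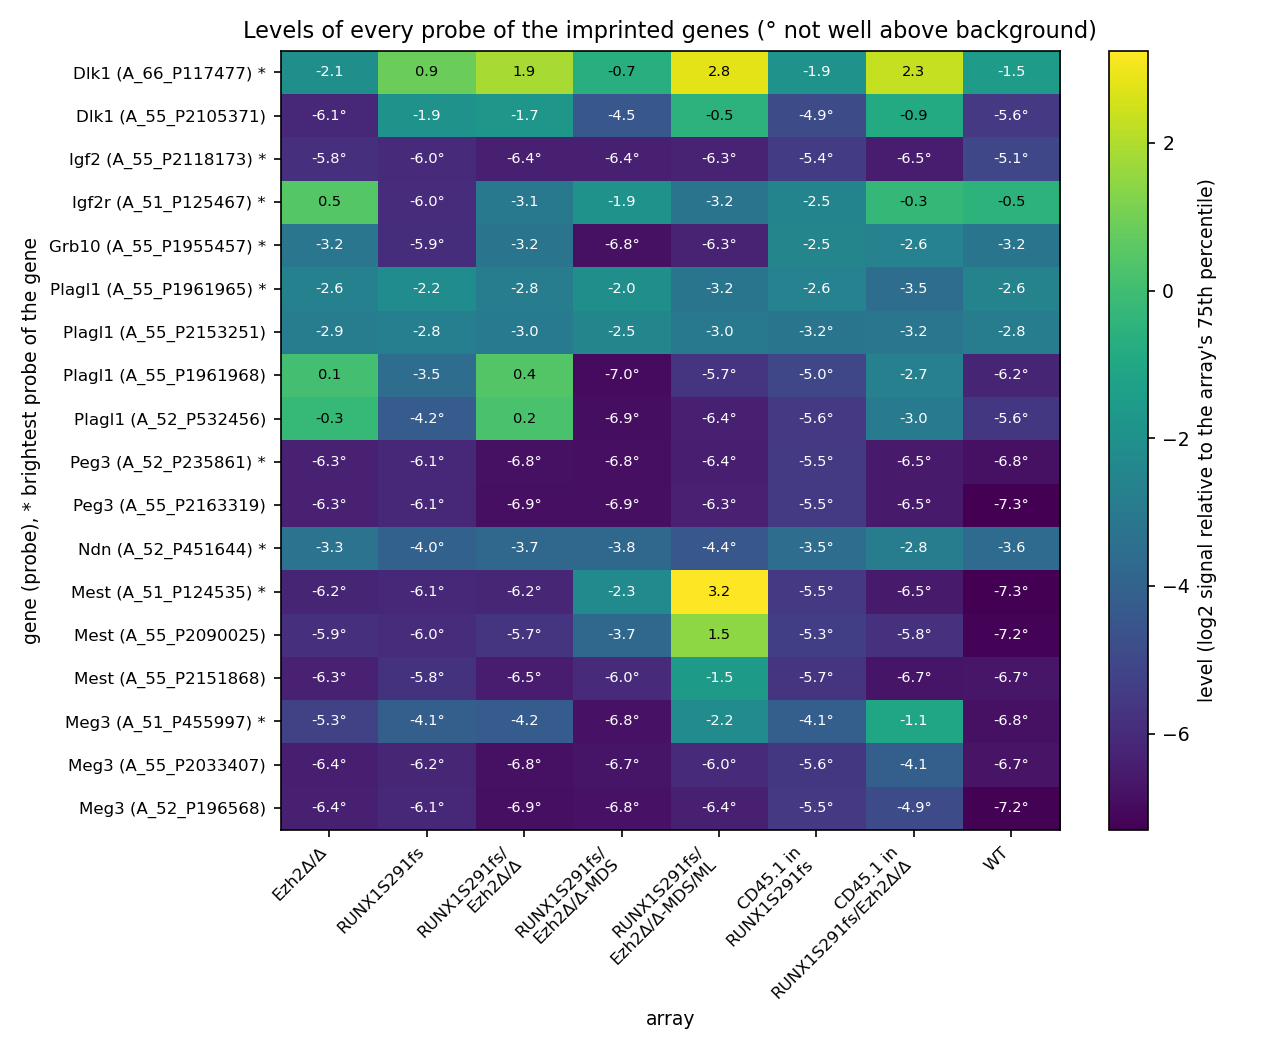
Level of each of the 18 probes (rows) on each of the 8 arrays (columns), as log2 signal relative to the array's 75th percentile, with a circle where the probe was not well above background. Colours compare arrays within a row, since probes differ in brightness for a given amount of RNA, and the Mest probes stand out on the MDS/ML array with 3.25, 1.46 and -1.54.

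The labelled cell type was checked against its markers. Kit was detected on every array at 4.06 to 5.11. Ly6a, which encodes the Sca-1 antigen of the sort, had levels of 0.53 on the MDS array and 1.18 on the MDS/ML array, against 3.17 to 4.14 on the other 6. The stem cell genes Procr and Hlf were also low on both moribund arrays. Of the B cell list of 7 genes, all were detected on the Ezh2Δ/Δ array and 2 to 6 on the others. The array's only Ezh2 probe read 3.10 to 3.51 on the 4 arrays with the deletion and 3.40 to 4.01 on the other 4, and since its place relative to the deleted part is unknown here, it does not check the labels. Ddx3y, a Y-linked gene, was detected on the Ezh2Δ/Δ and MDS/ML arrays, and Xist, expressed in female cells, on the other 6. Less RNA per cell and fewer cells of a type cannot be told apart in any of these bulk samples. The WT, RUNX1S291fs/Ezh2Δ/Δ and MDS arrays shared slide 1, the Ezh2Δ/Δ, RUNX1S291fs and both CD45.1 arrays slide 2, and the MDS/ML array was on slide 3, with 1 scan day for each slide.

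Mest, a paternally expressed member of the hydrolase fold family that is active in embryonic mesoderm, was detected only on the moribund arrays. Its brightest probe, printed as 10 spots, had levels of -2.31 on the MDS array and 3.25 on the MDS/ML array. On the other arrays it was not well above background, with measured levels of -6.22 in Ezh2Δ/Δ cells, -6.07 in RUNX1S291fs cells, -6.18 in RUNX1S291fs/Ezh2Δ/Δ cells, -5.53 and -6.54 in CD45.1 cells from RUNX1S291fs and RUNX1S291fs/Ezh2Δ/Δ recipients, and -7.26 in WT cells. Both moribund arrays thus lay above all others, and the MDS/ML array far above the MDS array. Where 1 of 2 arrays is below background, the fold given here is a bound, taken against the lowest detected level on that array. Mest was higher by at least 7.97 on the log2 scale in MDS/ML cells than in RUNX1S291fs/Ezh2Δ/Δ cells at month 4, and at least 5.32-fold higher in MDS cells than in the same month 4 cells. The 2 other Mest probes gave at least 72.6-fold and at least 9.03-fold for MDS/ML cells. In MDS cells 1 of them was detected at -3.74, at least 1.97-fold above RUNX1S291fs/Ezh2Δ/Δ cells, and the other was not detected. With the normexp background correction the difference in MDS cells was 0.96 on the log2 scale, which is under 2-fold, and that in MDS/ML cells 5.50.

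Genes that mark other cells were set beside Mest. In the stromal and endothelial list 7 of 11 genes were detected on the MDS/ML array and 5 on the MDS array, against 5 to 7 on the other arrays, and the mean level of the list was -2.38 and -2.93 on these moribund arrays, against -2.87 to -2.04 on the others. Of its defining genes, Col3a1, Pdgfra and Cdh5 were detected on no array, while Cxcl12 was detected at -2.32 on the MDS/ML array and at -1.89 on the Ezh2Δ/Δ array. Lepr, Pdgfrb, Kdr, Plvap and Col1a2 were detected on all 8 arrays, Stab2 at -1.98 on the MDS/ML array and otherwise only at -4.68 on the WT array, and Col1a1 on 3 arrays, none of them moribund. The mean level of the megakaryocyte list was 4.25 on the MDS array and 4.67 on the MDS/ML array, against -1.08 to 2.16 on the others. The part of these genes in the Mest signal was not tested. Copg2, the neighbour of Mest in its imprinted cluster that encodes a coatomer subunit, had levels of 2.44 to 3.03 over all 8 arrays.

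Dlk1 encodes a membrane protein of the Notch ligand family that is paternally expressed and marks fetal and regenerating tissues. Its brightest probe was detected everywhere, with levels of -2.05 in Ezh2Δ/Δ cells, 0.88 in RUNX1S291fs cells, 1.86 in RUNX1S291fs/Ezh2Δ/Δ cells, -0.67 in MDS cells and 2.83 in MDS/ML cells. In wild-type cells the levels were -1.94 in CD45.1 cells from RUNX1S291fs recipients, 2.32 in CD45.1 cells from RUNX1S291fs/Ezh2Δ/Δ recipients and -1.53 in WT donor cells. The 4 high arrays were MDS/ML, CD45.1 from RUNX1S291fs/Ezh2Δ/Δ recipients, RUNX1S291fs/Ezh2Δ/Δ and RUNX1S291fs, in that order. The mutant and wild-type arrays overlapped, and the SD over the 3 wild-type arrays was 2.35.

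Dlk1 was 5.29-fold higher in RUNX1S291fs cells than in WT cells and 10.4-fold higher in RUNX1S291fs/Ezh2Δ/Δ cells than in WT cells. The CD45.1 cells from RUNX1S291fs/Ezh2Δ/Δ recipients, which carry no lesion, stood 14.4-fold above WT cells, so the gap between these wild-type arrays was wider than either of those. These wild-type arrays were on different slides, as were the RUNX1S291fs and WT arrays. RUNX1S291fs/Ezh2Δ/Δ cells and the CD45.1 cells from such recipients differed by -0.46 on the log2 scale. RUNX1S291fs cells stood 7.04-fold above the CD45.1 cells from such recipients. MDS cells were 5.76-fold below RUNX1S291fs/Ezh2Δ/Δ cells, while MDS/ML cells were 1.96-fold above them. The second Dlk1 probe kept this order of high and low arrays, with the same 4 arrays highest at -0.47 in MDS/ML cells, -0.85 in CD45.1 cells from RUNX1S291fs/Ezh2Δ/Δ recipients, -1.72 in RUNX1S291fs/Ezh2Δ/Δ cells and -1.94 in RUNX1S291fs cells. It read -4.45 in MDS cells and was not detected in the other 3 groups.

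Meg3 is a maternally expressed long noncoding RNA whose gene starts 77.7 kb from the end of Dlk1 in the same imprinted cluster. Its brightest probe was detected on 3 arrays, at -4.22 in RUNX1S291fs/Ezh2Δ/Δ cells, -2.21 in MDS/ML cells and -1.07 in CD45.1 cells from RUNX1S291fs/Ezh2Δ/Δ recipients. The 5 arrays below background read -5.27 in Ezh2Δ/Δ cells, -4.11 in RUNX1S291fs cells, -6.77 in MDS cells, -4.10 in CD45.1 cells from RUNX1S291fs recipients and -6.81 in WT cells. The 3 arrays with detected Meg3 were the 3 with the highest Dlk1, though their order differed. That match depends on the lowest detected level of each array. This was -4.72 in RUNX1S291fs/Ezh2Δ/Δ cells, -4.05 in RUNX1S291fs cells and -3.79 in CD45.1 cells from RUNX1S291fs recipients. The measured Meg3 levels of RUNX1S291fs cells and of those CD45.1 cells lay slightly above the detected -4.22. Dlk1 was low, at -1.94, in CD45.1 cells from RUNX1S291fs recipients. Meg3 was 4.03-fold higher in MDS/ML cells than in RUNX1S291fs/Ezh2Δ/Δ cells, and 8.94-fold lower in RUNX1S291fs/Ezh2Δ/Δ cells than in the CD45.1 cells from such recipients. Those CD45.1 cells were at least 18.1-fold above WT cells. Only they reached detection on a second Meg3 probe, at -4.11, and the third probe was detected nowhere. With normexp the difference between MDS/ML and RUNX1S291fs/Ezh2Δ/Δ cells was 0.75, under 2-fold. Elsewhere in the cluster, Mirg, a maternally expressed microRNA host, was detected on 7 arrays at -4.18 to -2.59. It read -2.59 in CD45.1 cells from RUNX1S291fs/Ezh2Δ/Δ recipients and nearly the same, -2.66, in CD45.1 cells from RUNX1S291fs recipients. Its lowest detected level, -4.18, was in RUNX1S291fs/Ezh2Δ/Δ cells. Rtl1, a paternally expressed retrotransposon-derived gene, was detected on no array. Begain, an imprinted gene beside Dlk1, was low in some groups with high Dlk1, with -3.56 in RUNX1S291fs/Ezh2Δ/Δ cells and -4.00 in MDS/ML cells. It read -1.22 in WT cells. Its highest level, -0.88, was in CD45.1 cells from RUNX1S291fs/Ezh2Δ/Δ recipients, where Dlk1 and Meg3 were also high.

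**Figure D3:**
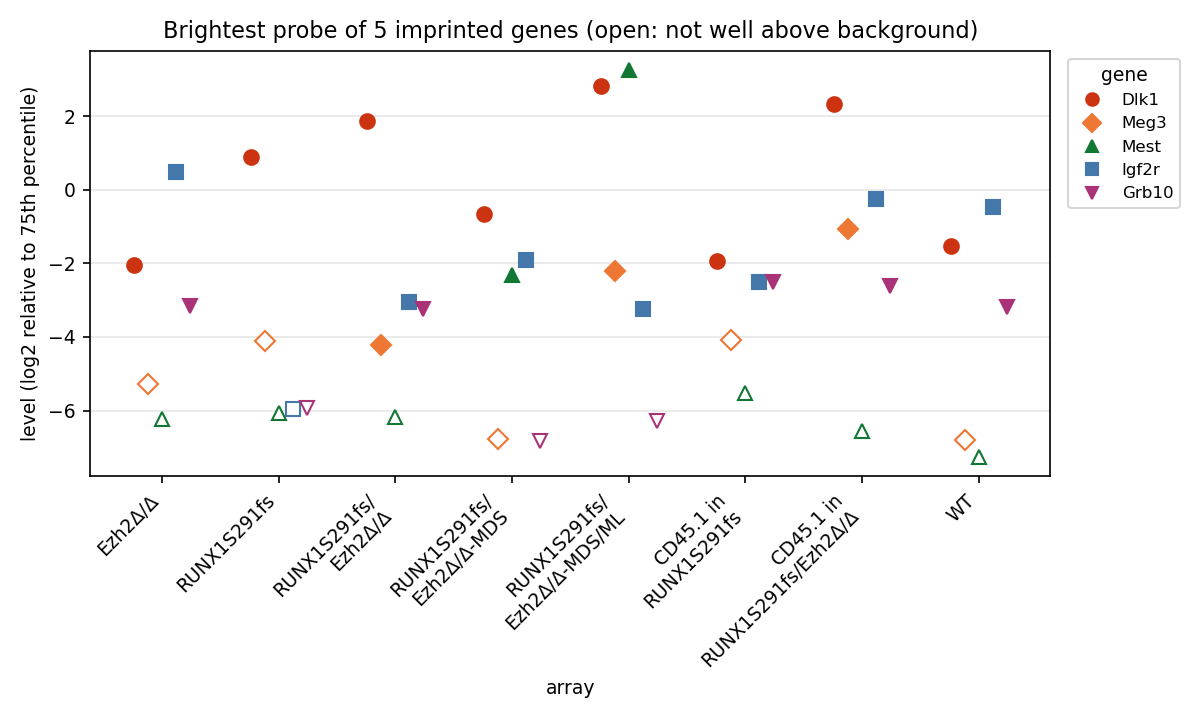
Level of the brightest probe (y axis, log2 relative to the array's 75th percentile) of Dlk1, Meg3, Mest, Igf2r and Grb10 on each array (x axis), with open symbols where the probe was not well above background. Mest is filled only on the MDS and MDS/ML arrays, Dlk1 is 2.32 in CD45.1 cells from RUNX1S291fs/Ezh2Δ/Δ recipients and -1.53 in WT cells, and Igf2r is open only in RUNX1S291fs cells. A symbol is to be compared across arrays, not with other symbols.

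Igf2r encodes the receptor that clears insulin-like growth factor II and carries lysosomal enzymes. It was read by a probe printed as 10 spots, with levels of 0.47 in Ezh2Δ/Δ cells, -3.05 in RUNX1S291fs/Ezh2Δ/Δ cells, -1.92 in MDS cells and -3.25 in MDS/ML cells. RUNX1S291fs cells were the only ones below background, at -5.96. The wild-type arrays read -2.52 in CD45.1 cells from RUNX1S291fs recipients, -0.26 in CD45.1 cells from RUNX1S291fs/Ezh2Δ/Δ recipients and -0.47 in WT cells, with an SD of 1.25. Of the 4 arrays with RUNX1S291fs, 3 lay below the wild-type range and the MDS array lay within it, so the groups overlapped. Igf2r was at least 11.9-fold lower in RUNX1S291fs cells and 5.96-fold lower in RUNX1S291fs/Ezh2Δ/Δ cells, each against WT cells. RUNX1S291fs/Ezh2Δ/Δ cells were 11.5-fold lower than Ezh2Δ/Δ cells and 6.91-fold lower than the CD45.1 cells from such recipients. Ezh2Δ/Δ cells were 1.92-fold above WT cells. Their array also had the highest mean level of the B cell list, 2.37, against -4.02 to -0.28 on the others, and the part of such cells in the Igf2r level was not tested. Among wild-type arrays alone, CD45.1 cells from RUNX1S291fs recipients were 4.13-fold below WT cells, a difference that shrank to -0.94 on the log2 scale, under 2-fold, with normexp.

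In the Igf2r cluster, the paternally expressed antisense RNA Airn, whose transcription silences Igf2r on the paternal copy, was detected on all 8 arrays and spanned -0.81 to 0.52. Array probes read 1 strand, and overlap of the probes with the partner gene was not checked. Slc22a3, a transporter gene of the cluster that is imprinted in the placenta, had levels of -0.42 in Ezh2Δ/Δ cells, -1.12 in RUNX1S291fs cells, -2.13 in RUNX1S291fs/Ezh2Δ/Δ cells and -2.74 in MDS cells. It was not detected in MDS/ML cells, and read -1.68 and -0.49 in CD45.1 cells from RUNX1S291fs and RUNX1S291fs/Ezh2Δ/Δ recipients and 0.02 in WT cells. Slc22a3 and Igf2r were both highest in Ezh2Δ/Δ cells, WT cells and CD45.1 cells from RUNX1S291fs/Ezh2Δ/Δ recipients.

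Igf2, the growth factor that Igf2r clears, was below background on every array, with measured levels of -6.45 to -5.06. Its gene lies 72.6 kb from H19 in the cluster where both share enhancers. Of the 16 other genes of the insulin-like growth factor pathway, 7 were tested in the model described below. In the moribund stage term 1 of them passed, lower, beside 1.85% of all 13548 genes, and 0 passed in the genotype terms. That gene was Igfbp4, a binding protein that restrains the growth factors, with an effect of -2.93 ± 0.40 (SE) and a limma adjusted p of 0.0194. Igfbp4 read -1.40 in MDS cells and -0.72 in MDS/ML cells, against 1.498 to 2.01 in all other groups, so the groups did not overlap. Igf2bp3, which binds Igf2 mRNA, was detected only in Ezh2Δ/Δ cells at -2.50 and in RUNX1S291fs/Ezh2Δ/Δ cells at -0.08. Igf1 was highest in MDS/ML cells, at -0.26, and lay between -6.21 and -3.36 elsewhere, where 4 arrays detected it. Igfbp6, a binding protein with preference for Igf2, read 0.46 in RUNX1S291fs cells, -0.69 in RUNX1S291fs/Ezh2Δ/Δ cells, -0.72 in MDS cells and -1.76 in MDS/ML cells, all above the -3.49 of Ezh2Δ/Δ cells and the -2.58 to -2.37 of the wild-type arrays. Igf2bp2, an mRNA-binding protein of the Igf2bp3 family, was below background in MDS cells and spanned -3.53 to -1.07 elsewhere. Irs2, an adaptor of the insulin receptor, spanned 0.56 in MDS/ML cells to 3.79 in RUNX1S291fs cells.

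Grb10 encodes an adaptor that dampens insulin and insulin-like growth factor receptor signalling. It was detected at -3.17 in Ezh2Δ/Δ cells, -3.24 in RUNX1S291fs/Ezh2Δ/Δ cells, -2.50 in CD45.1 cells from RUNX1S291fs recipients, -2.62 in CD45.1 cells from RUNX1S291fs/Ezh2Δ/Δ recipients and -3.20 in WT cells. It was below background in RUNX1S291fs, MDS and MDS/ML cells, with measured levels of -5.92, -6.82 and -6.28. The 3 wild-type arrays were close together, with an SD of 0.37. The mean level of the stem cell list was also low on the moribund arrays, at -1.05 in MDS and -0.66 in MDS/ML cells, against -0.20 to 1.61 on the others. It was highest, at 1.61, in RUNX1S291fs cells, where Grb10 was also below background, and lowest among the others, at -0.20, in CD45.1 cells from RUNX1S291fs recipients, where Grb10 was detected, and its part in the Grb10 level was not tested. Grb10 was at least 3.64-fold lower in MDS cells and at least 2.07-fold lower in MDS/ML cells, each against RUNX1S291fs/Ezh2Δ/Δ cells. RUNX1S291fs cells were at least 2.93-fold below the CD45.1 cells from such recipients. These 3 differences were -0.40, -0.75 and -0.73 on the log2 scale with normexp, all under 2-fold. Ddc, which lies beside Grb10 and is imprinted in the heart, was likewise below background on the MDS and MDS/ML arrays and was detected on the other 6 at -3.43 to -2.03.

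Plagl1, which encodes a zinc finger transcription factor that restrains cell division and acts on other imprinted genes, gave unlike readings with its 4 probes. The brightest probe by mean, A_55_P1961965, read -2.65 in Ezh2Δ/Δ cells, -2.19 in RUNX1S291fs cells, -2.81 in RUNX1S291fs/Ezh2Δ/Δ cells, -2.05 in MDS cells and -3.19 in MDS/ML cells. In wild-type cells it read -2.62 in CD45.1 cells from RUNX1S291fs recipients, -3.54 in CD45.1 cells from RUNX1S291fs/Ezh2Δ/Δ recipients and -2.57 in WT cells. A_55_P2153251 was flatter, at -3.19 to -2.47, and was below background only in CD45.1 cells from RUNX1S291fs recipients. By these probes no group was 2-fold apart from WT. The widest gap was by A_55_P1961965, 1.97-fold lower in CD45.1 cells from RUNX1S291fs/Ezh2Δ/Δ recipients, just short of that threshold.

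The other pair of probes had a wide and shared pattern. A_55_P1961968 was detected at 0.11 in Ezh2Δ/Δ cells, -3.53 in RUNX1S291fs cells, 0.43 in RUNX1S291fs/Ezh2Δ/Δ cells and -2.72 in CD45.1 cells from RUNX1S291fs/Ezh2Δ/Δ recipients. It was below background at -6.99 in MDS cells, -5.68 in MDS/ML cells, -5.04 in CD45.1 cells from RUNX1S291fs recipients and -6.20 in WT cells. A_52_P532456 read -0.25 in Ezh2Δ/Δ cells, 0.21 in RUNX1S291fs/Ezh2Δ/Δ cells and -2.99 in CD45.1 cells from RUNX1S291fs/Ezh2Δ/Δ recipients, and was below background elsewhere. Both probes were thus highest in the month 4 donor cells without Ezh2 and below background in the moribund cells without Ezh2. The mean level of the neutrophil list was 4.55 in Ezh2Δ/Δ cells and 6.83 in RUNX1S291fs/Ezh2Δ/Δ cells, against -1.03 in MDS/ML cells and 1.78 in WT cells, with MDS cells between the first pair. It was 4.72 in CD45.1 cells from RUNX1S291fs recipients, where both probes were below background, 1.83 in CD45.1 cells from RUNX1S291fs/Ezh2Δ/Δ recipients, where both were detected, and 3.43 in RUNX1S291fs cells, and its part in the Plagl1 signal was not tested.

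By A_55_P1961968, Plagl1 was at least 40.8-fold higher in Ezh2Δ/Δ cells and at least 51.1-fold higher in RUNX1S291fs/Ezh2Δ/Δ cells, each against WT cells, and by A_52_P532456 at least 31.8-fold and 43.9-fold. The wild-type CD45.1 cells from RUNX1S291fs/Ezh2Δ/Δ recipients were also at least 5.76-fold and 4.78-fold above WT cells by these probes. RUNX1S291fs/Ezh2Δ/Δ cells were 15.5-fold above RUNX1S291fs cells by A_55_P1961968 and 8.86-fold above the CD45.1 cells from such recipients. MDS cells were at least 46.4-fold and MDS/ML cells at least 26.4-fold below RUNX1S291fs/Ezh2Δ/Δ cells by this probe. All 4 probes carry the same RefSeq transcript in the files, and where each lies in it was not determined here. The RefSeq table gives Plagl1 a single start site, the one shown above.

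**Figure D4:**
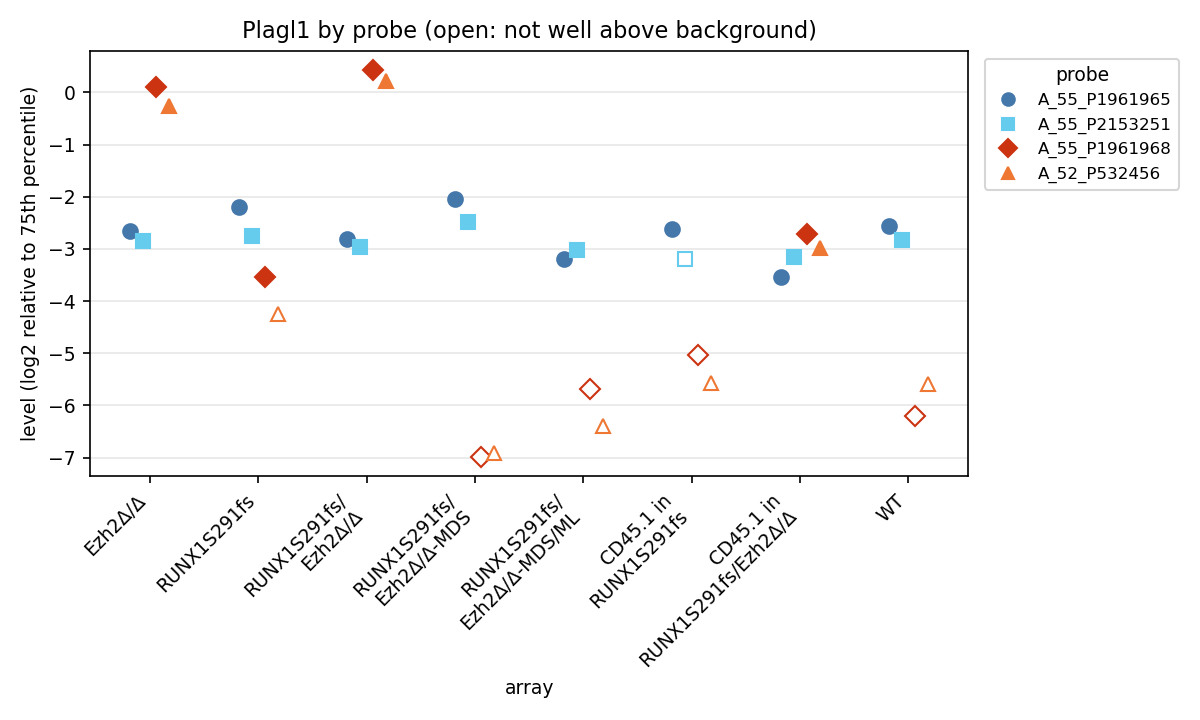
Level of each Plagl1 probe (y axis, log2 relative to the array's 75th percentile) on each array (x axis), with open symbols where the probe was not well above background. A_55_P1961965 and A_55_P2153251 stay between -3.54 and -2.05, while A_55_P1961968 and A_52_P532456 range from -6.99 and -6.92 in MDS cells to 0.43 and 0.21 in RUNX1S291fs/Ezh2Δ/Δ cells.

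Ndn, which encodes the growth suppressor necdin and is known to hold blood stem cells in quiescence, varied little among the arrays that detected it. It read -3.29 in Ezh2Δ/Δ cells, -3.73 in RUNX1S291fs/Ezh2Δ/Δ cells and -3.78 in MDS cells. It was below background in RUNX1S291fs and MDS/ML cells, at -4.04 and -4.43, and in CD45.1 cells from RUNX1S291fs recipients, at -3.52. The other wild-type arrays read -2.83 in CD45.1 cells from RUNX1S291fs/Ezh2Δ/Δ recipients and -3.61 in WT cells. Among the pairs of arrays compared below, none in which Ndn could be measured was past 2-fold. Differences that involve an array below background are bounds, so the true ones may be larger. RUNX1S291fs cells and the CD45.1 cells from such recipients were both below background, so Ndn was not measured in that pair. Peg3, a paternally expressed zinc finger gene, was below background with both of its probes on all 8 arrays, at -7.30 to -5.50.

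The only tests the design allows come from terms shared by several arrays. An additive limma model over the 8 arrays had terms for Ezh2 deletion (4 arrays), RUNX1S291fs (4 arrays) and moribund stage (2 arrays), and was fitted to the 13548 genes detected on at least 3 arrays, with 4 residual degrees of freedom. The moribund arrays are of single mice and the others of pools, which cannot be told apart from stage. The MDS/ML array was alone on slide 3 and had Ddx3y and not Xist detected, unlike the MDS and RUNX1S291fs/Ezh2Δ/Δ arrays. Slide and sex thus cannot be told apart from disease in its differences with them. Ezh2Δ/Δ and WT arrays differed in slide and in the same markers as well. So did the RUNX1S291fs/Ezh2Δ/Δ and Ezh2Δ/Δ arrays. The RUNX1S291fs array and both CD45.1 arrays were on slide 2, and the WT and RUNX1S291fs/Ezh2Δ/Δ arrays on slide 1. In pairs that cross these slides, slide cannot be told apart from group. Of the imprinted genes, 6 of 9 entered the model, and Igf2, Peg3 and Mest did not. With no filter on dim genes, Mest had a stage effect of 6.55 with a limma adjusted p of 0.186. None of the 6 passed an adjusted p of 0.05 in any term, and 1, 2 and 1 of them had an unadjusted p below 0.05 in the Ezh2, RUNX1S291fs and stage terms. Over all genes 0% passed in the Ezh2 term, 0.0148% in the RUNX1S291fs term and 1.85% in the stage term, that is 0, 2 and 250 genes, and 321, 806 and 1856 had an unadjusted p below 0.05. Without the RUNX1S291fs/Ezh2Δ/Δ array the stage term passed 0 genes.

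The effects whose 95% interval left out 0 belonged to Igf2r and Grb10. Igf2r had an effect of -4.33 ± 0.76 (SE) in the RUNX1S291fs term, with a limma adjusted p of 0.135 and an interval of -6.12 to -2.55. Igf2r was below background on the RUNX1S291fs array, whose measured level of -5.96 entered the model as it was. Over the alternative settings Igf2r had effects of -4.87 to -1.998 in this term. In the Ezh2 term its effect was 2.10 ± 0.76, with an adjusted p of 1.00. Grb10 had -1.92 ± 0.66 in the RUNX1S291fs term (limma adjusted p of 0.607) and -2.38 ± 0.80 in the stage term (adjusted p of 0.237). The Grb10 stage effect passed, at -3.31, when the Ezh2Δ/Δ array or the RUNX1S291fs array was left out. It also passed when a term for the product of both genotypes was added. For the stage term these settings are the same fit, which sets the moribund arrays against the RUNX1S291fs/Ezh2Δ/Δ array alone. They are thus a single result for this effect. Without the RUNX1S291fs/Ezh2Δ/Δ array it was -0.23 (limma adjusted p of 0.999), and with normexp -0.43 (adjusted p of 0.796), and Grb10 was below background on both moribund arrays. Without the RUNX1S291fs array the Grb10 effect of RUNX1S291fs was -0.07 (limma adjusted p of 0.985). The product term was itself 3.08 ± 0.73 for Grb10, with a limma adjusted p of 0.687. The other 14 effects of the imprinted genes had intervals that held 0, and the Dlk1 effect of RUNX1S291fs, 2.32 ± 1.49, had one of -1.20 to 5.84.

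The Plagl1 probes were also fitted one by one, after their values had been seen, in a model of all 17806 probes detected on at least 3 arrays, of which 1.74% passed in the stage term. Both probes with the wide pattern were among those that passed, and the flat probes were not. The pair was picked for its pattern, A_52_P532456 entered the model only through the 3 arrays where it is high, and both are below background on the moribund arrays, so their stage effects are a description and support nothing. With each array left out in turn, A_52_P532456 passed in 6 of 8 fits and A_55_P1961968 in 2 of 8, and neither passed with slide as a block. For the stage term, the fits without the Ezh2Δ/Δ array and without the RUNX1S291fs array are the same. Without the RUNX1S291fs/Ezh2Δ/Δ array the limma adjusted p was 0.206 and 0.255, and without the MDS array 0.0731 and 0.118. Neither probe passed in the Ezh2 term.

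Between single arrays there is no test, and members were counted past 2-fold among those detected on at least 1 array of a pair. Each member was counted by its brightest probe, so the Plagl1 probes with the wide pattern do not enter these counts. Ezh2Δ/Δ against WT cells had 0 of 5 such members, beside 11.7% (higher 7.82%, lower 3.88%) of all genes. By A_55_P1961968 and A_52_P532456, Plagl1 was at least 40.8-fold and at least 31.8-fold higher in this pair. RUNX1S291fs against WT had 2 of 5 (Dlk1 higher, Igf2r lower), beside 14.3% (higher 8.57%, lower 5.76%). RUNX1S291fs/Ezh2Δ/Δ against WT had 3 of 6, with Dlk1 and Meg3 higher and Igf2r lower, beside 18.6% (higher 10.6%, lower 7.96%). RUNX1S291fs/Ezh2Δ/Δ against Ezh2Δ/Δ had 2 of 6, Dlk1 and Igf2r, beside 22.1% (higher and lower 11% each). Against RUNX1S291fs it had 1 of 6, Igf2r, whose bound of 1.00 on the log2 scale lay at the threshold, beside 16.6% (higher 8.08%, lower 8.53%). Dlk1 lay just short of it at 0.98. With normexp the Meg3 difference against WT was 0.58 and the Igf2r difference against RUNX1S291fs 0.29 on the log2 scale, both under 2-fold.

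At the moribund stage 4 of 7 members were past 2-fold in MDS cells against RUNX1S291fs/Ezh2Δ/Δ cells (Mest and Igf2r higher, Dlk1 and Grb10 lower), beside 31.2% (higher 10.7%, lower 20.5%) of all genes. In MDS/ML cells 3 of 7 were (Mest and Meg3 higher, Grb10 lower), beside 25.1% (higher 9.82%, lower 15.2%). Both comparisons share the RUNX1S291fs/Ezh2Δ/Δ array. Mest and Grb10 were past 2-fold the same way in both. Outside these counts, Plagl1 by A_55_P1961968 was at least 46.4-fold lower in MDS cells and at least 26.4-fold lower in MDS/ML cells. With normexp Mest, Igf2r and Grb10 fell short of 2-fold in MDS cells, Igf2r at 0.63 on the log2 scale, and Meg3 and Grb10 in MDS/ML cells.

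Set against the CD45.1 cells from recipients of the same label, RUNX1S291fs cells had 3 of 4 members past 2-fold (Dlk1 higher, Igf2r and Grb10 lower), beside 21.5% (higher 9.13%, lower 12.4%) of all genes, and RUNX1S291fs/Ezh2Δ/Δ cells 2 of 6 (Igf2r and Meg3 lower), beside 19.7% (higher 10.3%, lower 9.47%). The wild-type arrays differed among themselves as well. CD45.1 cells from RUNX1S291fs/Ezh2Δ/Δ recipients against those from RUNX1S291fs recipients had 3 of 6 members past 2-fold, all higher (Dlk1, Meg3 and Igf2r), beside 16.6% (higher 7.26%, lower 9.38%). Against WT cells they had 2 of 6, Dlk1 and Meg3, beside 7.23% (higher 4.59%, lower 2.64%), and CD45.1 cells from RUNX1S291fs recipients had 1 of 5, Igf2r, beside 18.3% (higher 11.3%, lower 7.03%). With normexp Igf2r in RUNX1S291fs cells against the CD45.1 cells from such recipients, at -0.94, and Meg3 between the CD45.1 groups, at 0.82, were under 2-fold.

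**Figure D5:**
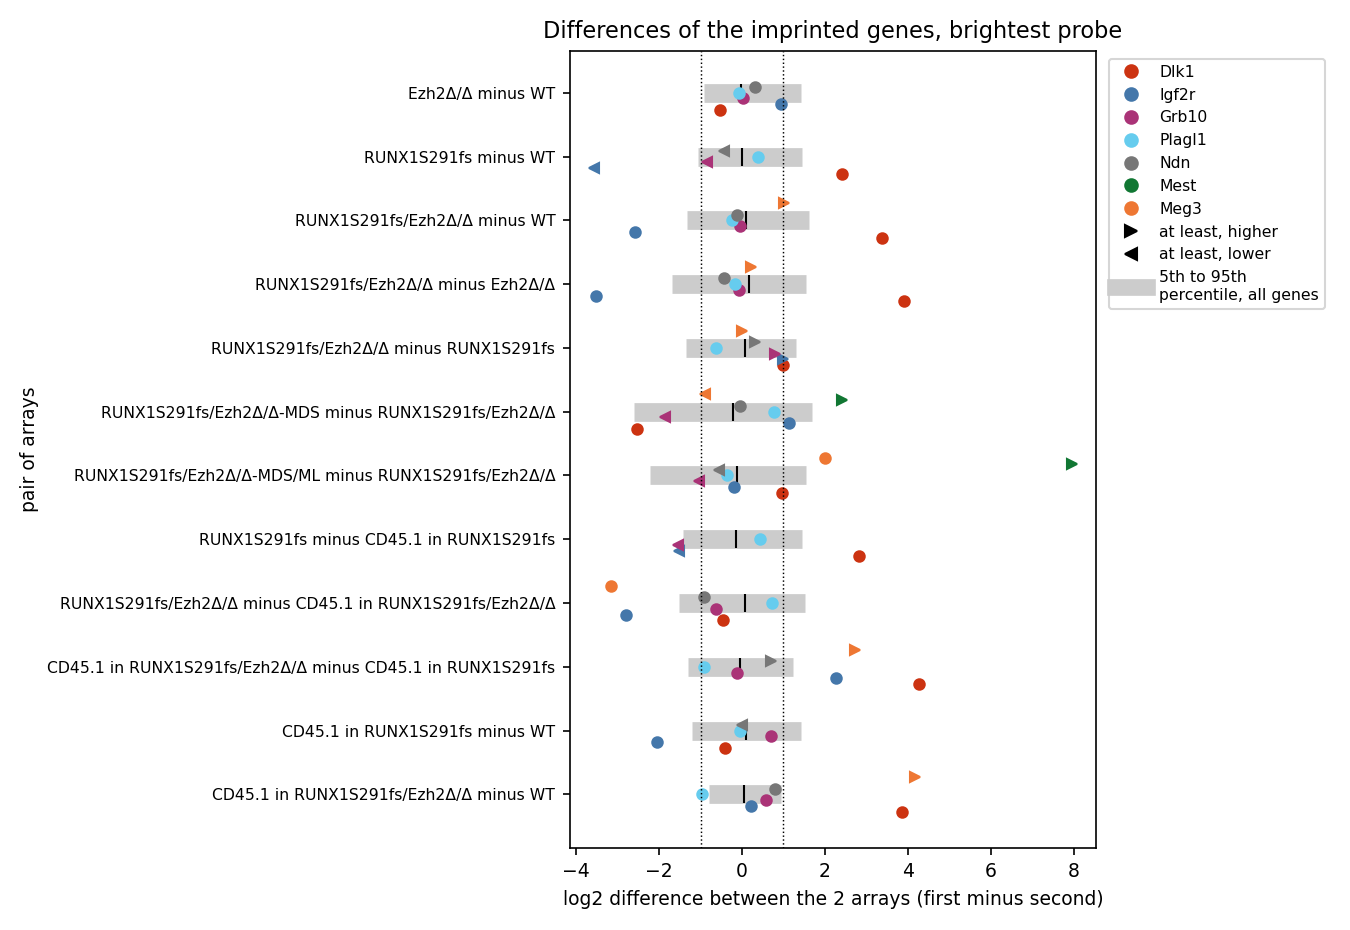
Log2 difference of 7 imprinted genes between the arrays of each pair (x axis, first named minus second), for 12 pairs (y axis), with triangles where the value is a bound, dotted lines at 2-fold and a grey bar from the 5th to the 95th percentile of all genes measured in the pair, its median as a tick. Mest in MDS/ML cells lies farthest out at 7.97, and Dlk1 lies right of the bar in both comparisons of CD45.1 cells from RUNX1S291fs/Ezh2Δ/Δ recipients with other wild-type cells, at 4.26 and 3.85.

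Of 50 other imprinted genes, 48 had a probe and 34 entered the model, and 0 of them passed in any term, with median effects of -0.07, 0.08 and -0.11 in the Ezh2, RUNX1S291fs and stage terms against -0.04, 0.03 and -0.13 over all genes. The stage median over all genes was -0.23 with scaling by the array median. The widest ranges belonged to Smoc1, Slc22a3, Begain, Ppp1r9a, Slc22a18 and Htr2a. Smoc1, a secreted matrix protein gene, was detected only in Ezh2Δ/Δ cells at -3.16, RUNX1S291fs cells at -0.51, CD45.1 cells from RUNX1S291fs recipients at -1.37 and WT cells at -4.29. Ppp1r9a, a phosphatase-binding scaffold gene, read -2.01 in MDS cells and 0.76 to 2.00 in all other groups. Slc22a18, an organic cation transporter-like gene of the Kcnq1 cluster, read -1.60 in MDS cells and -1.86 in MDS/ML cells, against 0.06 to 1.98 elsewhere, with a stage effect of -1.93 ± 0.55 and a limma adjusted p of 0.162. Htr2a, a serotonin receptor gene, was below background in MDS/ML cells and read -2.43 to -0.41 elsewhere, highest in RUNX1S291fs cells.

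Of 17 genes that set or keep imprints, 15 entered the model and 0 passed in any term. Dnmt1, which copies DNA methylation, and its partner Uhrf1 were lowest in MDS cells, at 1.56 and 4.52, against 2.51 to 3.16 and 5.59 to 6.31 elsewhere. Dnmt3a, a de novo methyltransferase, was highest in MDS/ML cells at 3.15, against 1.42 to 2.27 elsewhere. Dnmt3l, the cofactor needed to set maternal imprints in oocytes, had 0.61 in RUNX1S291fs/Ezh2Δ/Δ cells, was below background in MDS/ML cells and read -4.32 in MDS cells, with a stage effect of -4.88 ± 1.09 and a limma adjusted p of 0.0865. Zfp57, which guards imprints in the early embryo, spanned -1.40 to 0.04, and Tet1, which oxidises methylcytosine, 0.38 in MDS cells to 2.23 in WT cells.

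The genes whose profile over the 8 arrays lay nearest to a member, among 13548 genes, are named for members detected on at least 4 arrays. Nearness is the root mean square difference of centred levels. Values below background were first raised to the lowest detected level of their array, and the SDs given here are of such profiles. Genes below background on the same arrays share these raised values. Part of the closeness to Grb10 and to the Plagl1 probes with the wide pattern follows from that. Igf2r was followed most closely by Cmah, which encodes a sialic acid hydroxylase, at 0.50 against an SD of 1.63 for the Igf2r profile itself, then by Colq and Insrr at 0.63 and 0.65. Grb10 had Acpp, Zfp518b and Reep1 at 0.20 to 0.24 against its SD of 0.89. The nearest to Dlk1 were farther off, with Alox12, Btbd11 and Cracr2b at 1.12 to 1.14 against its SD of 2.00. The nearest to Ndn were Troap, Ska3 and Mfap2, at 0.20 to 0.21. The flat Plagl1 probe A_55_P1961965 had Lypd6, Tmem247 and Map3k13 nearest, at 0.13 to 0.20, and both probes with the wide pattern had Raet1e, Bcar3 and Tubb2b, at 0.71 to 0.98. With 8 arrays and many genes, near profiles are a description of these arrays.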

How the data were processed

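Per the labels, total RNA was labelled with Cy3 and hybridised to Agilent one-colour mouse arrays, and per the file headers these were read with Feature Extraction 10.7.1.1 on a design annotated to mm9. Per the file headers, the processed signal, the median signal and the background signal are fluorescence intensity, the first with background removed within each array. The series table deposited by the authors holds linear signal, which for at least 99.95% of probes matched the scaled scanner signal within 0.01 log2, and was an alternative, with 0 of its columns left out. Levels are log2 processed signal minus the array's 75th percentile, with outlier spots left out and spots of a probe averaged.

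Probes were named through transcript accessions in the RefSeq table of GRCm38.p6 (27235 of 55681 probes, 20643 genes). Models used limma 3.58.1 in R 4.3.3 with Benjamini-Hochberg adjustment, and were tested on simulated data. Normexp (offset 50) ran on the median signal, since a mean signal was not used here. The number of arrays limits the precision, and since no group has a second array, p-values measure only the spread left by the additive model. No probe was saturated on any array (0 probes).

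The members and gene lists were chosen with earlier results of these data known. From each list the 6 genes with the widest range were named, with all members, the 3 nearest profiles of each member detected on at least 4 arrays, and the marker genes. Copg2, Airn, Mirg, Rtl1, Ddc and Ezh2 were named outside this rule after their values were seen, as neighbours in a cluster or as a check. Alternatives covered the background correction, scaling, the deposited table, filters on dim genes, the probes of a gene, slide, added terms and leaving out each array.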

Additional observations from a re-analysis of the deposited data

Results flagged for a closer look

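The second Dlk1 probe moved in opposite directions in the moribund groups. It differed by -2.73 on the log2 scale in MDS cells and by 1.25 in MDS/ML cells, each against RUNX1S291fs/Ezh2Δ/Δ cells at month 4. The brightest Dlk1 probe had differences of -2.53 and 0.97 in the same pairs. Each value rests on 1 mouse, the pairs share an array, and the difference between the moribund groups was not tested.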

How the results depend on the processing

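No paired analysis was possible because the groups share fewer than 2 replicate numbers and the labels do not say which arrays share mice. Of the counts of members past a threshold, 132 of 155 alternative values stayed within 1.5 times the main count, and the others follow. That share is no measure of robustness. The 132 include counts of 0 beside a main count of 0, as in most settings of the model. The deposited table holds nearly the same signal as the scanner files. For the genotype terms, the fits without either moribund array and without both are the same. The count over all genes in the stage term, 250, was 74 with slide as a block, 152 with genes detected on all 8 arrays, 150 with no filter on dim genes and 0 to 381 when each array was left out.

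In the model, the count of members passing in the stage term was 1 instead of 0 with the mean over all probes of a gene (Plagl1), with the product of both genotypes added (Grb10) and with each probe fitted by itself (Plagl1), the last chosen after seeing the data. Leaving out each array in turn gave 0 to 1 in the stage term and 0 to 0 in the Ezh2 and RUNX1S291fs terms. The 4 single-gene effects with an interval that left out 0 kept their sign in all 71 alternative values, but not their size. Grb10 was -0.07 in the RUNX1S291fs term without the RUNX1S291fs array and -0.25 with normexp, against -1.92, and -0.23 in the stage term without the RUNX1S291fs/Ezh2Δ/Δ array and -0.43 with normexp, against -2.38. Igf2r ranged over -4.87 to -1.998 in the RUNX1S291fs term and 0.80 to 2.91 in the Ezh2 term. Of the effects with an interval that held 0, 14 in all, 46 of 253 alternative values changed sign.

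The count past 2-fold in Ezh2Δ/Δ cells against WT cells was 1 at 1.5-fold, with the mean over probes and with any probe of a gene, an alternative also chosen after seeing the data. In RUNX1S291fs/Ezh2Δ/Δ cells against RUNX1S291fs cells it was 2 with measured values in place of bounds, with the mean over probes, with any probe and with median scaling, and 4 at 1.5-fold. With normexp, which draws dim signals together by its offset, it was 1 in MDS and 1 in MDS/ML cells against RUNX1S291fs/Ezh2Δ/Δ cells, 1 in RUNX1S291fs cells against the CD45.1 cells from such recipients and 0 in CD45.1 cells from RUNX1S291fs recipients against WT cells. In MDS/ML cells it was 5 with the mean over probes and with any probe. At 1.5-fold it was 5 in RUNX1S291fs/Ezh2Δ/Δ cells against the CD45.1 cells from such recipients, 5 between the CD45.1 groups, and 2 and 4 in CD45.1 cells from RUNX1S291fs and RUNX1S291fs/Ezh2Δ/Δ recipients against WT cells. Beyond such counts the cause was not tested. Signals not well above background are bounds, so absence of RNA is not shown for Igf2 or Peg3.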
